A study of Homo sapiens with 12 samples.

Results

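The miR-130/miR-301 family is a set of 5 human microRNAs, hsa-miR-130a, hsa-miR-130b, hsa-miR-301a, hsa-miR-301b and hsa-miR-454, that share the same seed. The members were taken by name, from the systematic names on the array, and not by any measured value. They are 5 of the 851 human microRNA names on the array. The study measured microRNAs in SUM159, an established triple-negative breast cancer cell line with a mesenchymal character. The line had been stably infected with a pLKO.1 lentiviral vector that carried either a short hairpin RNA against Dicer (Dicer shRNA) or a scrambled hairpin (control shRNA). Each line was given PBS, here called vehicle, or 0.5 mM metformin, a biguanide used against type 2 diabetes, for 24 h. Each of the 4 groups had 3 biological replicates on 1-colour Agilent arrays, 12 arrays in all. The design addresses whether the microRNA response to metformin differs when Dicer is depleted.

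A microRNA is cut from its primary transcript by Drosha as a hairpin, which Dicer then trims to a short duplex. The strand loaded into Argonaute finds its targets mainly by pairing through its seed, so that members of a seed family share many predicted targets. Among the family, hsa-miR-130a is known for repressing the antiangiogenic homeobox genes GAX and HOXA5, and hsa-miR-130b for repressing TP53INP1. Names ending in an asterisk are the passenger strands, the other arm of the same hairpin.

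The sequences are shown because the array probes must tell apart microRNAs that share their seed. They are written 5′ to 3′ from RefSeq (GRCh38.p14), with the seed, bases 2 to 8, in capitals. RefSeq sequences were matched for 4 of the 5 members.

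hsa-miR-130b: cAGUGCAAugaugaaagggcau

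hsa-miR-301a: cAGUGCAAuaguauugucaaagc

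hsa-miR-301b: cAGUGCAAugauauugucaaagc

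hsa-miR-454: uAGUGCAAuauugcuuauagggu

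hsa-miR-130b lies at chr22:21653354-21653375 on the plus strand and hsa-miR-301b at chr22:21653025-21653047 on the plus strand. Their hairpins are 245 bases apart, within the span of a transcribed pseudogene. hsa-miR-301a lies at chr17:59151149-59151171 and hsa-miR-454 at chr17:59137787-59137809, both on the minus strand within the span of SKA2, a kinetochore gene, with 13263 bases between their hairpins. MIR130A lies on chromosome 11 within the span of the long non-coding RNA MIR130AHG. hsa-miR-130b and hsa-miR-301b are identical over their first 12 bases, while hsa-miR-130b and hsa-miR-301a are identical over the first 9. hsa-miR-301a and hsa-miR-301b were identical at 21 of 23 bases and differed by the substitutions A10G and G11A, counted from the 5′ end of hsa-miR-301a. Of 2370 human mature names in the RefSeq table, 6 had AGUGCAA at bases 2 to 8, a share of 0.253%. They are the 4 matched members and hsa-miR-3666 and hsa-miR-4295, and the latter were not on the array.

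The hairpin of hsa-miR-130b is shown because this member was measured in 3 of the 4 groups and Dicer cuts at its loop. Capitals mark the passenger arm, bases 13 to 33, and the mature arm, bases 51 to 72. The 17 bases in lower case between them are the loop. The hairpin lies at chr22:21653304-21653385 on the plus strand.

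MIR130B: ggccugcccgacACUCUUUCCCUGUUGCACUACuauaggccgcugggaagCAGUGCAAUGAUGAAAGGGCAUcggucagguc

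Between 130 and 204 human names were detected per array, and 98 were detected on all 12. Values are array intensities divided by each array's scale factor, which ranged from 0.870 to 1.20 and is set by the 75th percentile over those 98 names. A name that the scanner software did not call detected was set to a floor of 3.01 on this scale. A change against an undetected group is given relative to it. The floor is not each probe's detection limit. At 3.03 and 3.04 times their stated error, hsa-miR-223 was called at 4.29 and hsa-miR-130a* at 2.13, both in control metformin. An undetected signal can thus lie above the floor, and these folds are not strict limits. Arrays at the floor share 1 value, so SE and p do not measure spread there. A name was tested where all 3 arrays of at least 1 group detected it, which held for 208 human names. Differences are on the log2 scale and come from limma over those names, with a Benjamini-Hochberg adjusted p under 0.05 as the threshold. Dicer mRNA was not analysed here, so the depletion itself was not checked. Of the microRNAs taken here as mesenchymal markers, 5 of 5 were detected (hsa-miR-21, hsa-miR-100, hsa-miR-125b, hsa-miR-221 and hsa-miR-222). Of the epithelial markers of the miR-200 family, 0 of 5 were detected on any array. Detection of such markers does not by itself establish the mesenchymal character, and missing detection does not show absence. Both vehicle groups lay on one slide and both metformin groups on the other, so that metformin and slide cannot be told apart, whereas the lines were compared within a slide. Within each slide the control arrays came first, so line and position cannot be told apart either.

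Control features and viral names of the array also differed between the groups. The array has control features named hur, whose target is not given in the sources used here, and 4 of them were detected on all arrays. Their median difference, Dicer minus control shRNA, was -0.81 in vehicle, with 4 of 4 lower. It was 1.94 in metformin, with 4 of 4 higher. With metformin it was -3.84 in the control line and -0.999 in the Dicer line, with 4 of 4 lower in each. The 10 viral microRNA names detected on all arrays had medians of 0.87, -0.49, 1.38 and 0.34 in the same comparisons. The part of either set of features in the results below was not tested. The effect of dividing by the hur controls is given beside each result of hsa-miR-130b.

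Detection split the family. hsa-miR-130b was detected on 9 arrays, hsa-miR-130a on 3, and hsa-miR-301a, hsa-miR-301b and hsa-miR-454 on 0 of 12, so 2 of the 5 members were tested. hsa-miR-130b was called detected on every array of the vehicle groups and of the metformin-treated Dicer line, and on none of the metformin-treated control line. hsa-miR-130a was called detected on the 3 arrays of the vehicle-treated control line and on no other array. Where detected, the signal of hsa-miR-130b was 12.8 to 13.3 times its stated error in the vehicle-treated control line and 5.09 to 7.24 times in the metformin-treated Dicer line, and that of hsa-miR-130a was 8.90 to 10.5 times its error. The undetected members have no measured level here, and their absence from the cells is not shown by it. hsa-miR-301b shares its cluster with hsa-miR-130b but was not detected on any array where hsa-miR-130b was.

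**Figure D1:**
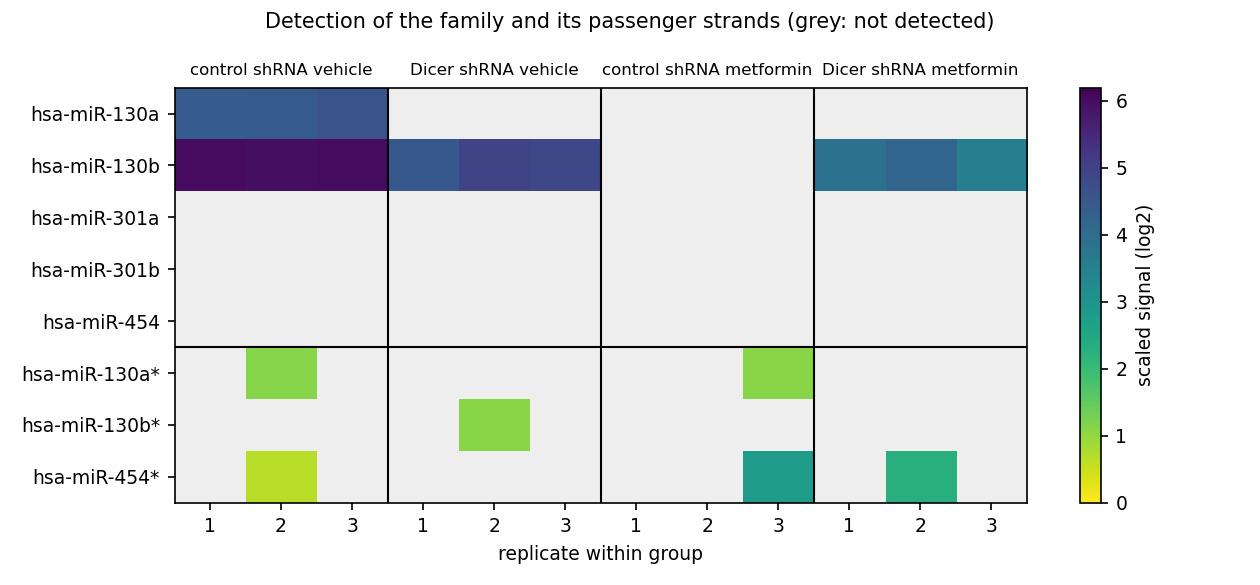
Detection of the 5 family members and 3 passenger strands (rows) on the 12 arrays (columns, replicate numbers within the 4 groups); colour gives the scaled signal as log2 and grey means not detected. Only hsa-miR-130b, on 9 arrays, and hsa-miR-130a, on 3, have a filled group of 3 replicates.

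The passenger strands were detected on scattered arrays. hsa-miR-130a* was detected on 2 arrays, at a scaled signal of 2.19 in control vehicle replicate 2 and 2.13 in control metformin replicate 3. hsa-miR-130b* was detected on 1 array, at 2.13 in Dicer vehicle replicate 2. hsa-miR-454* was detected on 3 arrays, at 1.59 in control vehicle replicate 2, 6.94 in control metformin replicate 3 and 4.90 in Dicer metformin replicate 2. Of these 6 values, those of hsa-miR-454* in metformin lay above the floor, at 5.65 and 5.18 times their stated error. No passenger strand was detected on all arrays of a group, so none was tested.

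In vehicle, both detected members were lower in the Dicer line. hsa-miR-130a had scaled signals of 21.2, 21.9 and 24.4 in the control line (22.5 ± 1.70, SD, n = 3) and was detected on 0 of 3 arrays of the Dicer line. Against the floor, or an array's lowest detected signal where higher, it was 6.93-fold lower in the Dicer line (limma adjusted p = 5.9e-10 against the floor). It entered the test only through the control vehicle arrays, so a fall from them was largely set by that filter. The p-value is therefore no support for the fall. hsa-miR-130b had 65.1, 63.2 and 64.1 in the control line (64.1 ± 0.966, SD, n = 3). It had 22.3, 30.5 and 28.8 in the Dicer line (27.2 ± 4.33, SD, n = 3). Every control array was above every Dicer array, and the control arrays lay much closer together. The difference of hsa-miR-130b was -1.25 ± 0.16 (SE; 95% interval -1.61 to -0.89), a 2.38-fold fall, with limma adjusted p = 8.7e-05. As a share of the summed signal of the 98 names detected on all arrays, hsa-miR-130b went from 0.0571 ± 0.0017% to 0.0175 ± 0.0030% (SD, n = 3).

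These 2 falls are to be read against 38.0% of the 208 names that were lower and 21.6% that were higher in this comparison, with a median over all names of 0.00. The members' median, over the 2 tested, was -2.07. The 6.93-fold value of hsa-miR-130a, which rests on the floor, lay above the upper end of the interval of hsa-miR-130b, 3.06-fold. An undetected signal can lie above the floor, so this does not rank the 2 falls. Within arrays, the log2 difference between hsa-miR-130a and hsa-miR-130b changed by -1.65, with hsa-miR-130a at the floor in the Dicer line. No value of hsa-miR-130a was measured there, so whether the 2 falls differ in size cannot be tested. Divided by the hur controls, the difference of hsa-miR-130b was -0.49 (limma adjusted p = 0.02 over 100 names). Under that scaling 68 of the 100 names were higher and 7 lower, with a median of 1.07. The 100 names are the 98 detected on all arrays and the 2 tested members, a smaller set than the 208. Under quantile normalization the difference of hsa-miR-130b was -0.62 (adjusted p = 0.046). Scaled to the viral names it was -2.0 (adjusted p = 9.2e-05). It was negative under every scaling tried, but its size depended strongly on the scaling, from -0.49 to -2.0.

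**Figure D2:**
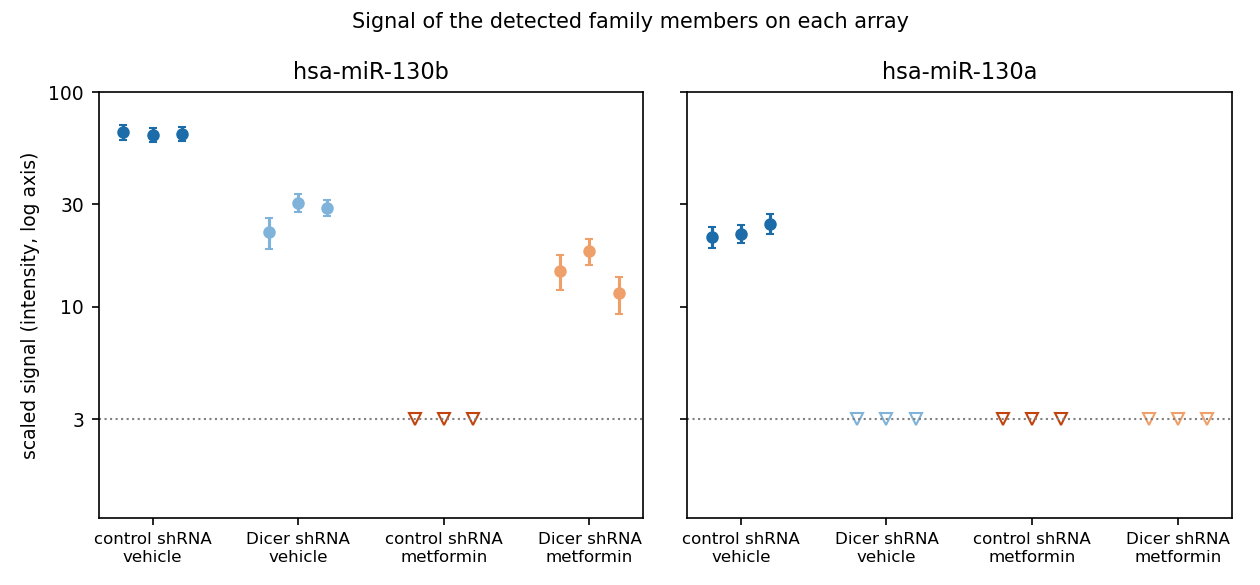
Scaled signal (log axis) of hsa-miR-130b (left) and hsa-miR-130a (right) on each of the 12 arrays, by group; bars are the error that the scanner software gave for each array and open triangles at the dotted floor of 3.01 mark arrays without detection. hsa-miR-130b fell from 63.2 to 65.1 in the vehicle-treated control line to 22.3 to 30.5 in the vehicle-treated Dicer line, and was not detected in the metformin-treated control line.

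In the control line, both members were below detection with metformin. hsa-miR-130b, at 63.2 to 65.1 in vehicle, was detected on 0 of 3 metformin arrays. Against the floor it was 21.3-fold lower with metformin, a floored difference of -4.41 ± 0.16 (SE) with limma adjusted p = 2.4e-09. hsa-miR-130a, at 21.2 to 24.4 in vehicle, was also detected on 0 of 3 metformin arrays. Against the floor hsa-miR-130a was 7.46-fold lower (limma adjusted p = 4.3e-10), with the same limit from the filter. All arrays of its other groups were at the floor, so this p does not measure the spread between arrays there. For hsa-miR-130b the metformin arrays likewise add no spread. Neither fold says how far below or above the floor the undetected signal lay.

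In this comparison 40.4% of names were lower and 47.6% higher, and the median over all names was 0.52. A call in either direction was therefore common, and the fall of both members was among the 84 lower names of 208. Divided by the hur controls, which fell by 3.84 in the same comparison, the floored difference of hsa-miR-130b was -1.02 (limma adjusted p = 6.1e-05). That scaling shifts the floor of each undetected array by its hur controls. The spread of the metformin arrays is then that of the hur controls, so this p does not measure hsa-miR-130b there. Under that scaling 92 of 100 names were higher and 6 lower. For hsa-miR-130a that scaling gave no lower limit above zero. Markers of other cell types moved with metformin as well. Of 7 blood microRNAs, hsa-miR-486-5p and hsa-miR-223 were detected, with a summed scaled signal of 15.2 to 20.4 in the metformin-treated control line and 0 in the other groups, while hsa-miR-451 and hsa-miR-144, which mark red cells, were not detected. Of 4 muscle microRNAs, hsa-miR-133a and hsa-miR-133b were detected, with sums of 24.9 to 29.9 in the metformin-treated control line, 7.74 to 21.1 in the metformin-treated Dicer line and at most 6.52 in vehicle, while hsa-miR-1 and hsa-miR-206 were not detected. Liver and neuronal markers were not detected. The part of these signals in the result was not tested.

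In the Dicer line, hsa-miR-130b stayed detectable with metformin. It had scaled signals of 14.7, 18.1 and 11.6 in metformin (14.8 ± 3.28, SD, n = 3), against 22.3, 30.5 and 28.8 in vehicle. Every metformin array was below every vehicle array, though replicate 2 in metformin and replicate 1 in vehicle were close. The difference was -0.89 ± 0.16 (SE; 95% interval -1.26 to -0.53) with limma adjusted p = 0.0025, a 1.86-fold fall. hsa-miR-130a was not detected in either group, and no fold is given for it. The background was 18.3% lower and 6.25% higher, with a median of 0.00.

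This fall depended on the scaling. In the deposited series matrix it was -0.53, with limma adjusted p = 0.053. Divided by the hur controls it turned to 0.028 (adjusted p = 0.90), since the hur controls fell by 0.999 themselves, and limma then called 79 of 100 names higher and 0 lower (82 and 0 at an unadjusted p under 0.05). Scaled to the viral names it was -1.37 (adjusted p = 0.0038). The error that the scanner software gave for each array is of the same order as the spread: the highest and lowest metformin arrays differed by 1.94 times their combined error, and the highest and lowest vehicle arrays by 1.76 times.

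With metformin, hsa-miR-130b was therefore measured in the Dicer line and not in the control line. With the control line at the floor it was 4.83-fold higher in the Dicer line, a floored difference of 2.27 ± 0.16 (SE) with limma adjusted p = 1.7e-06. The direction was opposite to that in vehicle, where the Dicer line was lower. hsa-miR-130a was detected in neither line. In this comparison 13.9% of names were higher and 25.0% lower, with a median over all names of -0.24. Divided by the hur controls, which were 1.94 higher in the Dicer line, hsa-miR-130b was higher by a floored 0.55 (limma adjusted p = 0.0074). The control line stood at a floor shifted by the hur controls, so this p does not measure hsa-miR-130b there. Under that scaling 3 of 100 names were higher and 91 lower. Those names include both members, with hsa-miR-130a at a shifted floor in both lines.

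The change with metformin differed between the lines for hsa-miR-130b. The interaction, the metformin difference in the Dicer line minus that in the control line, was 3.52 ± 0.23 (SE) with limma adjusted p = 6e-07. It takes the metformin-treated control line at its floor. A lower true level there would make it larger, and a higher one smaller. For hsa-miR-130a the fitted value was 2.90 ± 0.11 (SE; limma adjusted p = 1.7e-08). Every group except the vehicle-treated control line was at the floor for hsa-miR-130a. The fitted value therefore repeats the fall in the control line and does not measure the metformin response of the Dicer line. Of all names, 37.0% had a positive and 39.4% a negative interaction, with a median of -0.53. The hur controls had a median interaction of 2.84, positive in 4 of 4. Divided by them hsa-miR-130b had 1.05 (limma adjusted p = 0.001), where 6 of 100 names were positive and 89 negative. This value and its p also rest on the shifted floor of the metformin-treated control line.

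Averaged over both treatments, Dicer shRNA against control shRNA gave -1.45 ± 0.05 (SE) for hsa-miR-130a and 0.51 ± 0.12 for hsa-miR-130b, with limma adjusted p of 1.7e-08 and 0.0043. The background was 15.4% higher and 35.6% lower, with a median of -0.18. These averages join changes of opposite sign for hsa-miR-130b and include a comparison of undetected groups for hsa-miR-130a. That of hsa-miR-130b lost its call under scaling to the median of the arrays, to the viral names or to the hur controls, and with a higher floor.

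**Figure D3:**
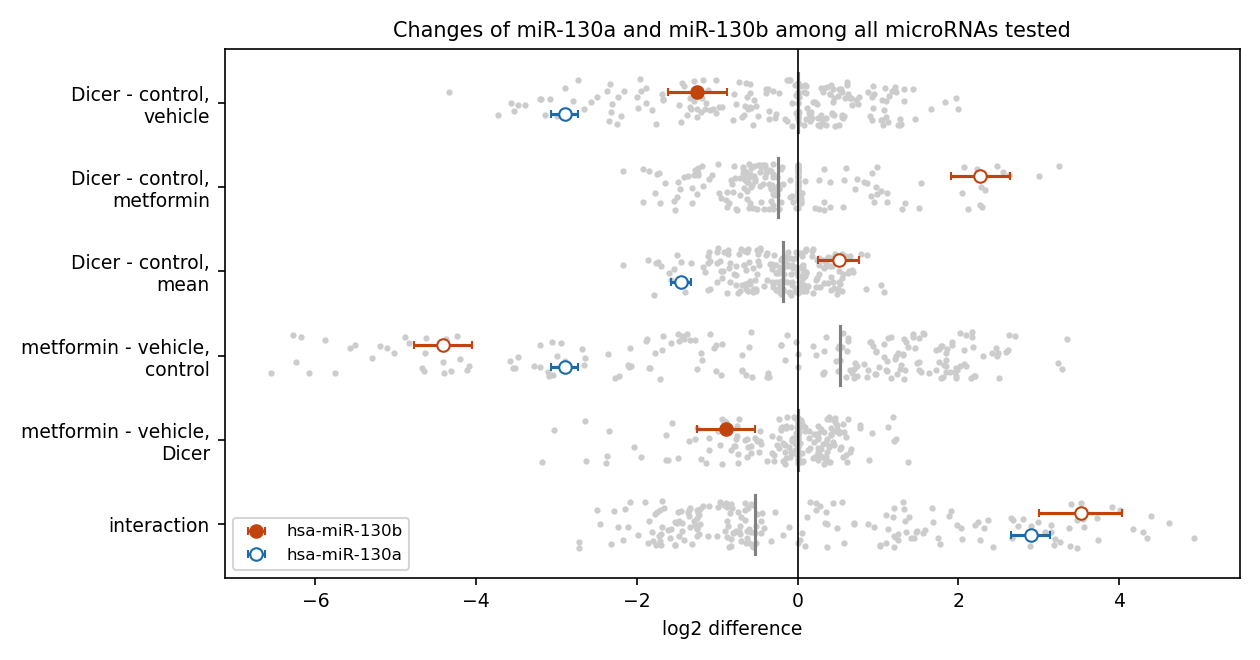
Log2 differences of hsa-miR-130b (red) and hsa-miR-130a (blue) with 95% intervals in 6 comparisons, over the 208 names tested (grey dots; the short grey line is their median). Open symbols rest on a group at the floor; comparisons with no detection in either group show no symbol. hsa-miR-130b was at -1.25 in vehicle and 2.27 in metformin for Dicer minus control shRNA.

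**Figure D4:**
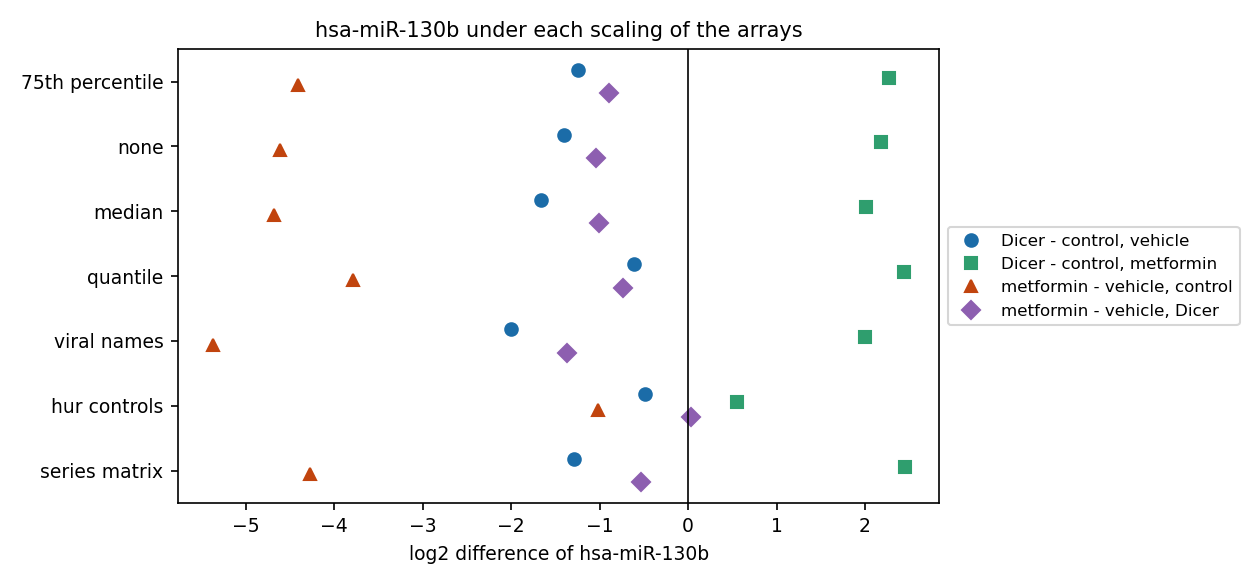
Log2 difference of hsa-miR-130b in 4 comparisons (symbols) under each scaling of the arrays (rows). The sign was the same in every row for 3 of the comparisons; metformin minus vehicle in the Dicer line moved from -0.89 to 0.028 when divided by the hur controls.

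MicroRNAs with an overlapping or shifted seed are shown because they can pair with some of the same target sites. In the sequences, from RefSeq (GRCh38.p14), capitals mark AGUGCA in the miR-148/152 family and GUGCAA in miR-19.

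hsa-miR-148a: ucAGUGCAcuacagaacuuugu

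hsa-miR-148b: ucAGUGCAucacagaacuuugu

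hsa-miR-152: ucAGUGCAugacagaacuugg

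hsa-miR-19a: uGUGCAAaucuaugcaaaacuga

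hsa-miR-19b: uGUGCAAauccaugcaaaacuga

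The miR-148/152 family, known for repressing the DNA methyltransferase DNMT1, was nearly undetected. hsa-miR-148b was detected on 2 arrays of the vehicle-treated control line, at scaled signals of 4.99 and 5.11, and hsa-miR-148a and hsa-miR-152 on none. Of the 5 seed relatives, the 2 tested were hsa-miR-19a and hsa-miR-19b, members of the miR-17-92 cluster. In vehicle hsa-miR-19b had 279.5, 262.6 and 308.7 in the control line and 17.8, 41.4 and 39.7 in the Dicer line, with no overlap, a difference of -3.20 ± 0.42 (SE; limma adjusted p = 8.7e-05). hsa-miR-19a was detected on 3 of 3 control and 1 of 3 Dicer arrays, with -4.34 ± 0.10 (adjusted p = 1.9e-10). It too entered the test only through the control vehicle arrays, with most of its other arrays at the floor. With metformin in the control line neither was detected, and against the floor hsa-miR-19a was 21.2-fold and hsa-miR-19b 94.1-fold lower. In metformin, hsa-miR-19b was detected on 2 of 3 Dicer arrays and 0 of 3 control arrays, with 0.98 ± 0.42, which did not pass the threshold (limma adjusted p = 0.089), where hsa-miR-130b did. That difference between hsa-miR-19b and hsa-miR-130b was not tested.

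The 5 mesenchymal marker microRNAs, hsa-miR-21, hsa-miR-100, hsa-miR-125b, hsa-miR-221 and hsa-miR-222, are set beside the family because most were detected in every group. In vehicle 5 of 5 were lower in the Dicer line, as hsa-miR-130b was, with a list median of -1.18. In metformin 5 of 5 were higher in the Dicer line, with a median of 2.33. With metformin 5 of 5 were lower in the control line (median -4.64) and 5 of 5 in the Dicer line (median -0.99). Averaged over treatments 4 of 5 were higher, hsa-miR-21 having -0.19 ± 0.19 (SE; limma adjusted p = 0.45), and 5 of 5 had a positive interaction (median 3.73). The shares over all names are those given above for each comparison.

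All but hsa-miR-125b, which was detected on 1 of 3 arrays of the metformin-treated control line, were detected on all 12 arrays and gave the contrast in metformin from measured values in both lines. hsa-miR-222 had 18.6, 27.3 and 23.0 in the metformin-treated control line and 92.7, 96.1 and 92.0 in the metformin-treated Dicer line. Its difference was 2.05 ± 0.13 (SE; limma adjusted p = 8.1e-07), against -0.70 ± 0.13 in vehicle (adjusted p = 0.00099). hsa-miR-221 had 2.33 ± 0.30 in metformin and -1.05 ± 0.30 in vehicle, with limma adjusted p of 0.00014 and 0.012. hsa-miR-21 had 2.11 ± 0.27 and -2.50 ± 0.27, with adjusted p of 0.00013 and 2.8e-05. hsa-miR-100 had 2.55 ± 0.27 and -1.18 ± 0.27, with adjusted p of 3.4e-05 and 0.003. On this scale the sign differed between treatments for these markers, as it did for hsa-miR-130b. Divided by the hur controls, the vehicle and metformin differences were -1.75 and 0.40 for hsa-miR-21, -0.43 and 0.83 for hsa-miR-100, and -0.29 and 0.61 for hsa-miR-221. For hsa-miR-222 they were 0.060 and 0.33, with no change of sign. Under that scaling hsa-miR-21 passed in vehicle (limma adjusted p = 3.8e-05), hsa-miR-100 and hsa-miR-221 in metformin (0.0014 and 0.014), and none of the 4 in both.

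**Figure D5:**
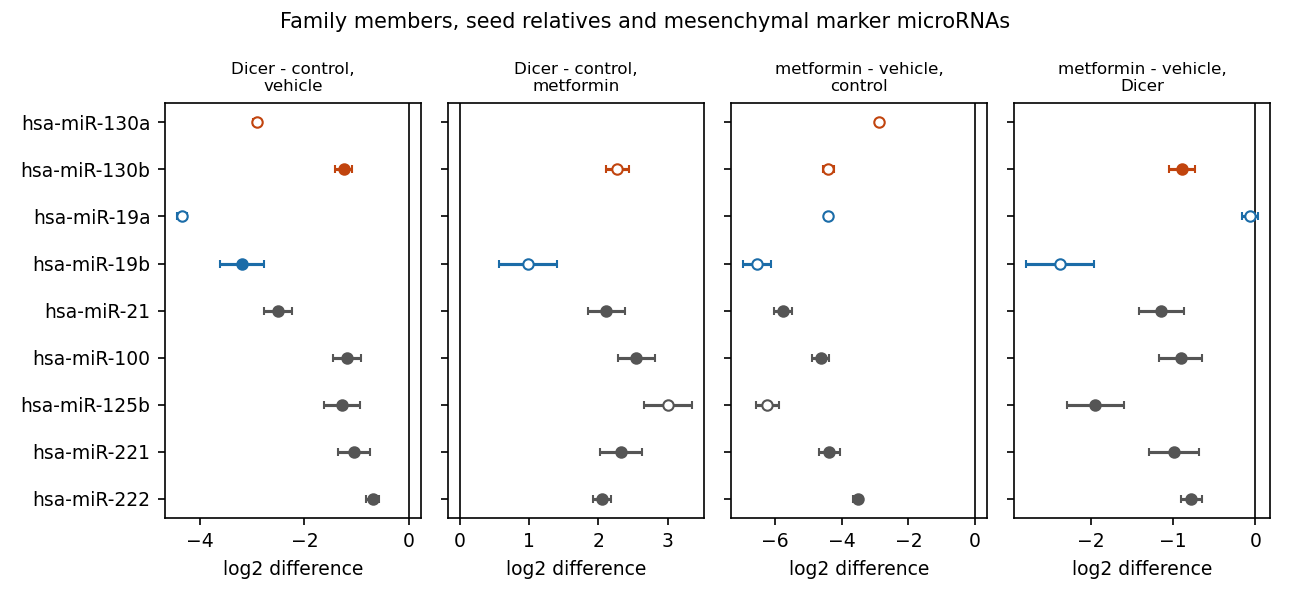
Log2 differences ± SE of the tested family members (red), seed relatives (blue) and mesenchymal marker microRNAs (grey) in 4 comparisons, each panel with its own axis; open symbols mark a group with at least 1 array not detected, and names undetected in both groups have no symbol. hsa-miR-222 was at -0.70 in vehicle and 2.05 in metformin for Dicer minus control shRNA.

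The tested microRNAs outside the family whose floored log2 signal followed hsa-miR-130b most closely over the 12 arrays were hsa-miR-29a, hsa-miR-342-3p and hsa-miR-25. Their Pearson r was 0.997, 0.995 and 0.993. These values describe 12 arrays in 4 groups, which share slides and scaling, and arrays at the floor enter with the same value for each name. Since they were picked for following hsa-miR-130b, their group differences are given as a description, with no test. hsa-miR-29a, known for repressing collagen genes, differed by -1.68 for Dicer minus control shRNA in vehicle. hsa-miR-342-3p, encoded in an intron of EVL, differed by -0.98, and hsa-miR-25, of the miR-106b-25 cluster, by -1.44. In the metformin-treated control line hsa-miR-342-3p was detected on 0 of 3 arrays, and hsa-miR-29a and hsa-miR-25 on 1 of 3 each, at scaled signals of 4.08 and 4.63. In the metformin-treated Dicer line hsa-miR-29a had 34.1, 38.2 and 24.3, hsa-miR-342-3p had 16.4, 16.2 and 11.9, and hsa-miR-25 had 19.2, 22.1 and 16.9. hsa-miR-130a was detected on too few arrays, 3 where 4 were asked for, to be matched in this way.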

How the data were processed

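Total RNA of 12 samples was labelled with Cy3, per the labels. Per the labels' protocols the labelling kit is one for mRNA, and the source names of the metformin samples disagree with their titles; groups follow the titles. Each deposited file gives 1 linear intensity per name, the total gene signal named in the file headers, with its error and a detection flag; undetected names are listed at 0.1. The submitters' processing notes name Agilent Feature Extraction 9.1. For 221 microRNAs the deposited series matrix gives log2 values, with normalization and centring not given in the sources used here and column medians of 3.19 to 4.06; it served as an alternative. Signals were divided by each array's 75th percentile over the 98 human names detected on all arrays, relative to the arrays' geometric mean, floored at 3.01 (each array's 5th percentile among detected names, as a median), undetected names included, and taken as log2. limma 3.58.1 in R 4.3.3 fitted all 4 groups over 208 names (8 residual degrees of freedom), after a test on simulated data; tables and figures used Python, pandas, numpy and matplotlib. Named microRNAs are the members, the fixed lists (1 list is not reported here) and the 3 most like each member detected on at least 4 arrays. The members and lists were chosen with earlier results of these data known. Same-numbered replicates were not paired in the main fit: over 18 pairs r was -0.19 to 0.32, and above 0.1 in 7 of them. Replicates of a group had r of 0.956 to 0.992, with 0 of 12 pairs identical, and precision is limited by 3 arrays per group. Alternatives were other scalings, floors and filters, the series matrix, a replicate block, array weights and leaving out each array; dividing by the hur controls was chosen after seeing the data.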

Additional observations from a re-analysis of the deposited data

Results flagged for a closer look

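The change of hsa-miR-130b with metformin differed between the control and Dicer lines by 3.52 on the log2 scale (limma adjusted p = 6e-07). This tests the difference itself, with the metformin-treated control line at the floor. The hur controls had a median interaction of 2.84, and divided by them the value of hsa-miR-130b was 1.05. That scaling also shifts the floor of the metformin-treated control line. For hsa-miR-130a the fitted value was 2.90 (limma adjusted p = 1.7e-08). Every group except the vehicle-treated control line was at the floor for hsa-miR-130a. The fitted value therefore repeats the fall in the control line and does not measure the response of the Dicer line.

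hsa-miR-454*, a passenger strand that entered no test, gave scaled signals of 6.94 in control metformin replicate 3 and 4.90 in Dicer metformin replicate 2, above the highest value in the vehicle-treated control line, 1.59. It was not detected on the other arrays of either metformin group.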

How the results depend on the processing

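No call of hsa-miR-130a was lost under the alternatives kept for it. This member entered the test only through the control vehicle arrays and has no measured value elsewhere, so its kept calls are no support. Dividing by the hur controls was kept for it in the vehicle comparison only. That scaling shifts the floor of undetected arrays, and with metformin in the control line it gave no lower limit above zero. Whether the other calls of hsa-miR-130a hold under it is therefore not shown. hsa-miR-130b kept direction and call under all 23 alternatives in 3 comparisons and in the interaction, between -2.0 and -0.49 (Dicer minus control, vehicle), 0.55 and 2.45 (metformin), -5.37 and -1.02 (metformin, control line) and 1.05 and 4.00 (interaction). Of these, all but the vehicle comparison rest on the shifted floor of the metformin-treated control line when divided by the hur controls. The fall with metformin in the Dicer line became 0.028 with the hur controls, and with the series matrix 0 members were called. The mean over treatments called 1 member, not 2, under scaling to the median or to viral names, a floor at 2 times the main one and an offset of 16. The cause was not tested. The replicate block left 2 members called in vehicle (124 of all names), 1 in metformin (83), and changed no member's call.

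Over all names, keeping those detected on all 12 arrays (fewer names, and neither member) gave 64 calls in place of 124 for Dicer against control in vehicle, 44 in place of 81 in metformin, 27 in place of 106 for the mean, 86 in place of 183 and 28 in place of 51 for metformin in the control and Dicer lines, and 72 in place of 159 for the interaction. In metformin, scaling to the median gave 129, to viral names 53 and array weights 126. For metformin in the Dicer line, array weights gave 82, and leaving out 1 array gave 32 to 72, the lowest without Dicer metformin replicate 3.

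Splits of higher against lower calls moved with scaling. In vehicle, 45 against 79 became 32 against 91 (median), 16 against 108 (viral) and 61 against 59 (quantile). In metformin, 29 against 52 became 24 against 105 (median) and 40 against 13 (viral). For the mean, 32 against 74 became 5 against 131 (median) and 55 against 52 (quantile). For metformin, 99 against 84 became 29 against 134 (viral) in the control line, and 13 against 38 became 6 against 44 (unscaled), 2 against 52 (viral), 32 against 26 (quantile) and 43 against 19 (series matrix) in the Dicer line. For the interaction, 77 against 82 became 108 against 19 (viral). Divided by the hur controls, over 100 names, the 6 splits were 68 against 7, 3 against 91, 1 against 39, 92 against 6, 79 against 0 and 6 against 89 in the same order. Scaling to viral names moved the median over all names by at most -1.72, in the control line with metformin, and dividing by the hur controls moved that of 100 names by 0.76, -1.72, -0.48, 3.39, 0.92 and -2.47. A 75th percentile over all human names was not run, as it fell on undetected names on all 12 arrays.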
